A study of Mus musculus with 16 samples.

Results

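The interleukins and their receptors were examined in mouse CD4 T cells deficient in Erk2 (KO) or wild type (WT), all of strain C57/BL6 per the labels. Members were all genes whose symbol on the Illumina array begins with Il and a digit, leaving out Il2ra, Il4, Il7r, Il12rb1, Il12rb2 and Il18r1. There were 66 such genes, with 92 probes, among 16593 genes with a symbol and 25697 probes. Of these, 39 members (49 probes) were above background on at least 2 arrays, out of 9800 genes and 14501 probes. Each genotype was measured at day 0 without culture, after 3 hr in iTreg (induced regulatory T cell) or Th0 (neutral) culture, and at day 1 in iTreg, Th1 or Th0 culture. TGF (transforming growth factor) was given for 1 hr or 3 hr to some of the day 1 Th0 cultures. The 8 conditions in 2 genotypes fill 16 arrays with no repeats, and this small number limits the precision. Erk2 deficiency is the only genetic difference that the labels give, and they name neither the deleting strain nor the animals behind a sample.

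Interleukins are secreted proteins that pass signals between leukocytes. Most bind receptors built from a ligand-specific chain and a chain shared between several cytokines, and signal through Jak kinases and Stat factors. The IL-1 and IL-17 families use adaptor proteins that lead to NF-kB. In CD4 T cells, the interleukins that are made mark the effector type, and the receptors on the surface set which cytokines a cell can answer. Erk2 is a kinase of the Ras pathway downstream of the T cell receptor.

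Promoter sequences are shown for Il12a, Il1a and Il3, the cytokine genes with a promoter entry that differed most between cultures or between genotypes. They come from RefSeq (GRCm38.p6), in which 50 of the 66 members have an entry, and run from 250 bases before to 50 bases after a transcription start, 5′ to 3′ on the gene's strand. Il12a has 2 annotated starts, at chr3:68690394-68690693 and chr3:68691174-68691473 (plus strand). The Il1a window is chr2:129309923-129310222 and that of Il3 is chr11:54267230-54267529, both on the minus strand. Capitals mark matches, on either strand, to TGANTCA (the AP-1 motif), CAGAC (a Smad motif) or GGAAA (the NFAT core).
Il12a window 1: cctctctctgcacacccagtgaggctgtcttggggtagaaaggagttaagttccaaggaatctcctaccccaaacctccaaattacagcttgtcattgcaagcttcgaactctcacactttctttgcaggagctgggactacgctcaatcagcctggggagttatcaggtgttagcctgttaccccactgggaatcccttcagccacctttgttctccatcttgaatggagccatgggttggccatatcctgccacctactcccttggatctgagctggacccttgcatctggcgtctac
Il12a window 2: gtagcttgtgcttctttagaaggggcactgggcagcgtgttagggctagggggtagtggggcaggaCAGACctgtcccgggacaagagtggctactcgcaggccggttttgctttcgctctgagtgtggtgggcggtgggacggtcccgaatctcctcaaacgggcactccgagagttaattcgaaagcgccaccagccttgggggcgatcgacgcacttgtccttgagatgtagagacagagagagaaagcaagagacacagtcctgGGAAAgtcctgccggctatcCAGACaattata
Il1a: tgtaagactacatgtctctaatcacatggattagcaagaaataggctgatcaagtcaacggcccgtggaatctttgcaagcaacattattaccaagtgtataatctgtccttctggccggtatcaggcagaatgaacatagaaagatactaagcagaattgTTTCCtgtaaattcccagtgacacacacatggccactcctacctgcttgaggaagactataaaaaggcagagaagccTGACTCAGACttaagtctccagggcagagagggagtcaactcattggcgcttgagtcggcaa
Il3: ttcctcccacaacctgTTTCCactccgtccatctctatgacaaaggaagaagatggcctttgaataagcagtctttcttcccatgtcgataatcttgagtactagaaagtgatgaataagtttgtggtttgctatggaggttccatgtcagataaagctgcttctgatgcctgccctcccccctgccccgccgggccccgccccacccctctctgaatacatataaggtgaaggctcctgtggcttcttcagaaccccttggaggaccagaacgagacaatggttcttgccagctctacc
The first Il12a window held none of the motifs. The second held CAGAC at bases 67 to 71 and 289 to 293 and GGAAA at bases 269 to 273. The Il1a window held GGAAA at bases 162 to 166 and TGANTCA at bases 239 to 245, which overlaps a CAGAC match at bases 244 to 248. The Il3 window held GGAAA at bases 17 to 21. Of all 32851 RefSeq promoter windows, 7.81% hold TGANTCA, 49.6% CAGAC and 61.3% GGAAA. A match is a stretch of letters and not evidence of binding, and the absence of one says only that those letters are not in the window.

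On the assembly GRCm38.p6, Il12a (gene ID 16159) lies on chromosome 3 from 68690644 to 68698550, and Il24 (93672) on chromosome 1 from 130882074 to 130887411. Il1a (16175) lies on chromosome 2 from 129299609 to 129310186, and Il3 (16187) on chromosome 11 from 54265085 to 54267279. Il6ra (16194) lies on chromosome 3 from 89869324 to 89913196, and Il6st (16195) on chromosome 13 from 112464070 to 112506860.

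The arrays were alike in brightness, with a median intensity between 62.6 and 71.1 and 12172 to 12636 probes above background. All 7 T cell markers, Cd4 and the Cd3 chains among them, were above background on every array. In the day 0 pair, KO minus WT was 3.21 on the log2 scale for Hba-a1 (alpha globin) and −3.48 for Gdpd3. In the 3 hr pairs the same differences were −3.43 and −3.46 for Hba-a1 and 2.68 and 2.74 for Gdpd3, so the day 0 pair ran against the genotype labels of the later pairs. Comparisons over time average both genotypes at day 0, and exchanging the labels of that pair leaves them as they are. Day 0 genotypes are given below as labelled. The KO day 1 iTreg array also stood apart: it lay at 17.2 on the first principal component (71.7% of the variance), whereas the other day 1 arrays lay between 30.04 and 35.1. Day 0, both 3 hr cultures and day 1 Th0 shared a chip, and the other day 1 cultures shared another. KO and WT arrays alternated on both chips, so array position and genotype cannot be told apart.

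Levels are log2 intensities, and a probe counts as above background when it passes an array's 99th percentile of background, a limit of 6.29 to 6.33. Between 23 and 31 members were above background on an array, and 13 members were above it on all 16. The brightest, with means above 8, were 6 genes: the receptor chains Il27ra, Il6ra, Il6st, Il10rb and Il2rb, and Il16, a secreted ligand of CD4. Their order by level is not an order of abundance, since different probes are not on the same scale. By contrast, 22 of the 39 members had a mean under 6.5, close to background. Il18bp, Il1f10, Il33, Il20ra and Il17rd had the smallest ranges over the 16 arrays, from 0.17 for Il18bp to 0.316 for Il17rd.

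For 27 members no probe passed the filter, and no fold is given for them. They were the ligands Il5, Il6, Il7, Il17b, Il17c, Il17d, Il17f, Il18, Il19, Il1f5, Il1f6, Il1f9, Il20, Il22, Il23a, Il25, Il27 and Il34, and the receptors Il9r, Il13ra1, Il13ra2, Il17rc, Il1rapl2, Il1rl2, Il22ra2, Il23r and Il31ra. Just outside the filter, Il5, Il17f, Il1rl2 and Il22ra2 were above background on 1 array. Just inside it, Il15, Il17rb and Il1rn were above background on 2. Genes of the family without a probe among the 66, such as Il2, Il2rg and Il4ra, were not analysed here.

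**Figure D1:**
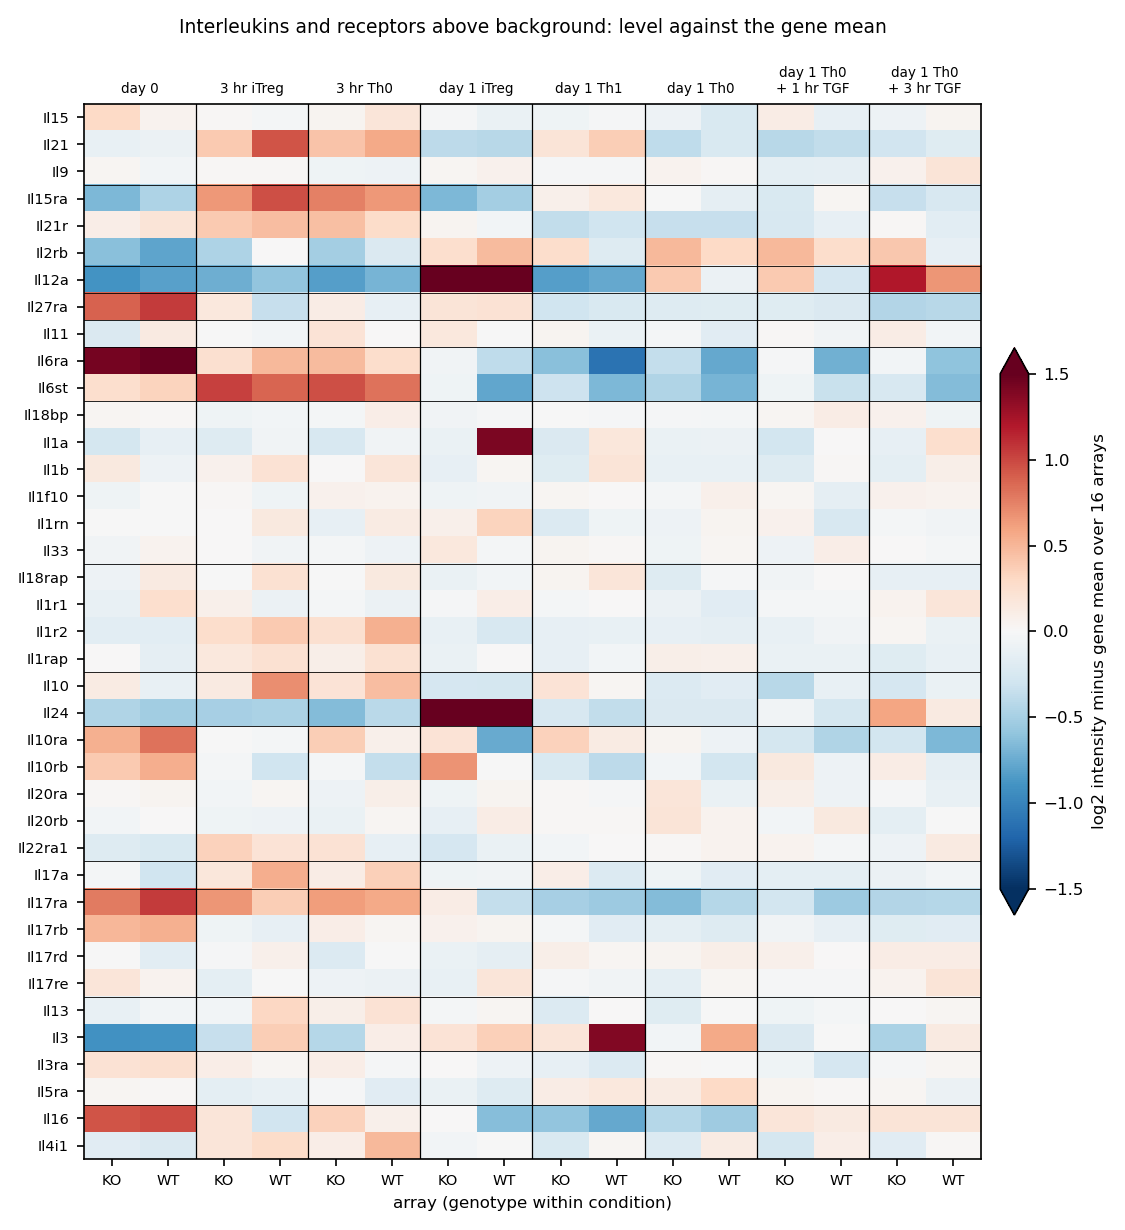
Level of the 39 members above background, one row each, on all 16 arrays, as log2 intensity minus the gene's mean over the arrays; rows run by family, ligands before receptors, and within each condition the KO array is left of the WT array. Il12a and Il24 stand out in the iTreg columns at day 1, Il1a in the WT iTreg array, and Il6ra and Il27ra at day 0.

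The first comparison asked how interleukin genes differed after 3 hr of culture (4 arrays) from day 0 (2 arrays), all on 1 chip. Il15ra, Il3, Il21 and Il6st were higher at 3 hr, and Il6ra, Il27ra, Il16 and both IL-10 receptor chains were lower. Of the 39 members 20 passed the test (51.3%), 13 higher and 7 lower. Over all genes 51.8% passed, 25.1% higher and 26.7% lower, so the share of members that changed was close to that of all genes. The members' median difference was 0.05 and that of all genes was 0.01. All differences come from limma fits of the 16 arrays, with Benjamini-Hochberg adjustment over all 14501 probes and a threshold of 0.05.

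Among ligands, Il21, which supports germinal centre responses, was at 6.84 and 6.88 in the KO and 7.39 and 7.02 in the WT cells at 3 hr (iTreg, then Th0), against 6.34 in KO and 6.36 in WT cells at day 0. All 3 hr arrays were above both day 0 arrays (log2 difference 0.68, SE 0.0869, adjusted p = 4.21e-06). Il3, a growth factor of myeloid progenitors and mast cells, was at 6.51 and 6.43 in KO and 7.23 and 6.96 in WT cells at 3 hr, against 5.96 in both genotypes at day 0. Il3 was not above background at day 0, and its 3 hr level was at least 1.39-fold higher (adjusted p = 0.000164). Such bounds set the mean of the brighter group against the lowest signal above background on the dimmer group's arrays. Il17a, the signature cytokine of Th17 cells, was likewise below background at day 0 and at least 1.22-fold higher at 3 hr (adjusted p = 0.000178). It was above background on all arrays at 3 hr and otherwise only on the KO day 1 Th1 array. Il17a thus passed the filter only through the 3 hr arrays, and its call is not independent of the filter. Il10, an anti-inflammatory cytokine, was higher by 0.37, and Il13, a type 2 cytokine, by 0.22. The Il13 groups overlapped, and the Il10 call was lost without the WT day 0 array (adjusted p = 0.112). In the IL-1 family none of the 6 measured ligands and antagonists passed.

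Among receptors, all 3 measured chains of the gamma chain family were higher at 3 hr. Il15ra, which presents IL-15 on the cell surface, was at 7.63 and 7.75 in KO and 7.95 and 7.64 in WT cells at 3 hr, against 6.32 in KO and 6.52 in WT cells at day 0. Every 3 hr array exceeded both day 0 arrays, by 2.50-fold on average (log2 difference 1.32, SE 0.0951, adjusted p = 5.24e-09). The 3 other Il15ra probes differed by 0.78, 0.72 and 0.27, each passing the test, but none was above background at day 0. The probe with 0.27 was above background only on the WT arrays at 3 hr, so it passed the filter through that group alone. Il2rb, the beta chain shared by the IL-2 and IL-15 receptors, was higher by 0.42 (adjusted p = 0.00621), a call lost without the WT day 0 array (adjusted p = 0.0844). Il21r was higher by 0.25, and its second probe did not pass (0.18, adjusted p = 0.117). Il6st, the signalling chain gp130, was higher by 0.63, and Il1r2, a decoy receptor for IL-1 that was below background at day 0, by at least 1.09-fold. Of the 7 members that were lower at 3 hr, all but Il16 were receptor chains. Il6ra, the IL-6 binding chain, was at 9.01 and 9.24 in KO and 9.25 and 9.03 in WT cells at 3 hr, against 10.21 in KO and 10.54 in WT cells at day 0. It was 2.36-fold lower with no overlap (log2 difference −1.24, SE 0.0968, adjusted p = 1.45e-08). Il27ra, the IL-27 binding chain, fell by 1.02 on its brighter probe and by 1.21 on the other. Il16 fell by 0.88, Il10rb by 0.65, Il10ra by 0.57 and Il17ra, the common IL-17 receptor chain, by 0.36. Il17rb, a chain of the IL-25 receptor, was above background on the 2 day 0 arrays and on no other array of the series (at least 1.32-fold lower at 3 hr). Likewise, Il1r2 was above background only on the 4 arrays at 3 hr. Both genes passed the filter through the brighter group alone, so their calls, counted above, are not independent of the filter. The other members that passed were Il22ra1, Il4i1 and Il1rap, all higher. A second kept probe of Il1rap was not higher, with means of 6.283 at day 0 and 6.248 (iTreg) and 6.279 (Th0) at 3 hr. The remaining kept probes of Il1rap were higher in both 3 hr cultures. For 1 of these, above background on no day 0 or 3 hr array, the difference is read at background. Its means were 6.10 at day 0 and 6.17 (iTreg) and 6.22 (Th0) at 3 hr. Markers of other cells moved as well. Of 4 tested myeloid markers, Lyz1 and Lyz2 were lower at 3 hr (log2 differences −1.53 and −1.04). Of 5 tested CD8 and NK cell markers, Klrd1, Nkg7 and Cd8b1 were lower (−1.30, −1.07 and −0.35), as was Cpa3 of mast cells (−0.38), and of 7 B cell markers 2 were higher and 2 lower. In bulk RNA, fewer cells of a type and less RNA per cell cannot be told apart, and the part of these cells in the interleukin levels was not tested.

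The next comparison set day 1 Th0 cultures against 3 hr Th0 cultures (2 arrays each, 1 chip). Il12a and Il2rb were higher at day 1, while Il6st, Il17ra, Il6ra, Il21 and Il15ra were lower. Of 39 members 20 passed, 5 higher and 15 lower, beside 56.3% of all genes, 27.8% of them higher and 28.5% lower. The members' median difference was −0.08, against 0.005 over all genes.

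Il12a, which encodes the p35 chain shared by IL-12 and IL-35, was at 7.32 in KO and 6.83 in WT cells at day 1, against 6.10 in KO and 6.22 in WT cells at 3 hr, where it was not above background (at least 1.69-fold higher, adjusted p = 0.000346). Il2rb was at 8.57 in KO and 8.38 in WT cells at day 1, against 7.57 in KO and 7.86 in WT cells at 3 hr (log2 difference 0.76, SE 0.134, adjusted p = 0.000114). Both genes thus separated the days without overlap. Il5ra was higher by 0.30, a call lost without the WT day 1 array (0.20, adjusted p = 0.191). Il24 passed too, but was above background on only the KO day 1 array, by a margin too small for a fold, and its call was lost without the KO 3 hr array (adjusted p = 0.322). Il3 was higher by 0.42 with overlapping groups, and its call was lost in 11 of 25 other settings (highest adjusted p = 0.332).

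Il6st was at 7.89 in KO and 7.65 in WT cells at day 1, against 9.32 in KO and 9.17 in WT cells at 3 hr. It was 2.77-fold lower at day 1 (log2 difference −1.47, SE 0.105, adjusted p = 3.88e-09), and day 1 was also below its day 0 levels of 8.60 (KO) and 8.68 (WT). Il17ra fell by 1.13, Il6ra by 0.93, Il15ra by 0.78 and Il21r by 0.71. Il21 was not above background in either day 1 Th0 array, and was at least 1.56-fold lower than at 3 hr (adjusted p = 2.96e-06). Il10 fell by 0.52, and Il17a was at least 1.17-fold lower; both calls were lost without the KO 3 hr Th0 array (adjusted p = 0.0669 and 0.0995). The other members that passed lower were Il16, Il1r2, Il4i1, Il15, Il13, Il17rb and Il11, with log2 differences of −0.69 to −0.21. Neither group was above background for Il17rb. Il1r2 was above it only at 3 hr, the group through which it passed the filter. Il15 was above it only on the WT 3 hr array and Il11 only on the KO 3 hr array. The differences of Il17rb, Il1r2, Il15 and Il11 are thus read at background. Il17a also passed the filter only through the 3 hr arrays, so its call is not independent of the filter.

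In the same comparison all 4 tested myeloid markers were lower at day 1 (log2 differences of −2.47 for S100a8, −2.13 for S100a9, −1.33 for Lyz1 and −0.73 for Lyz2), as were both red cell genes, with −3.33 for Hba-a1. Klrd1 differed by −1.55, and Nkg7 and Cd8b1 were higher by 0.54 and 0.31. Of 7 B cell markers 1 was higher and 3 were lower, and of 7 T cell markers 6 were lower. Their part in the interleukin levels was not tested.

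**Figure D2:**
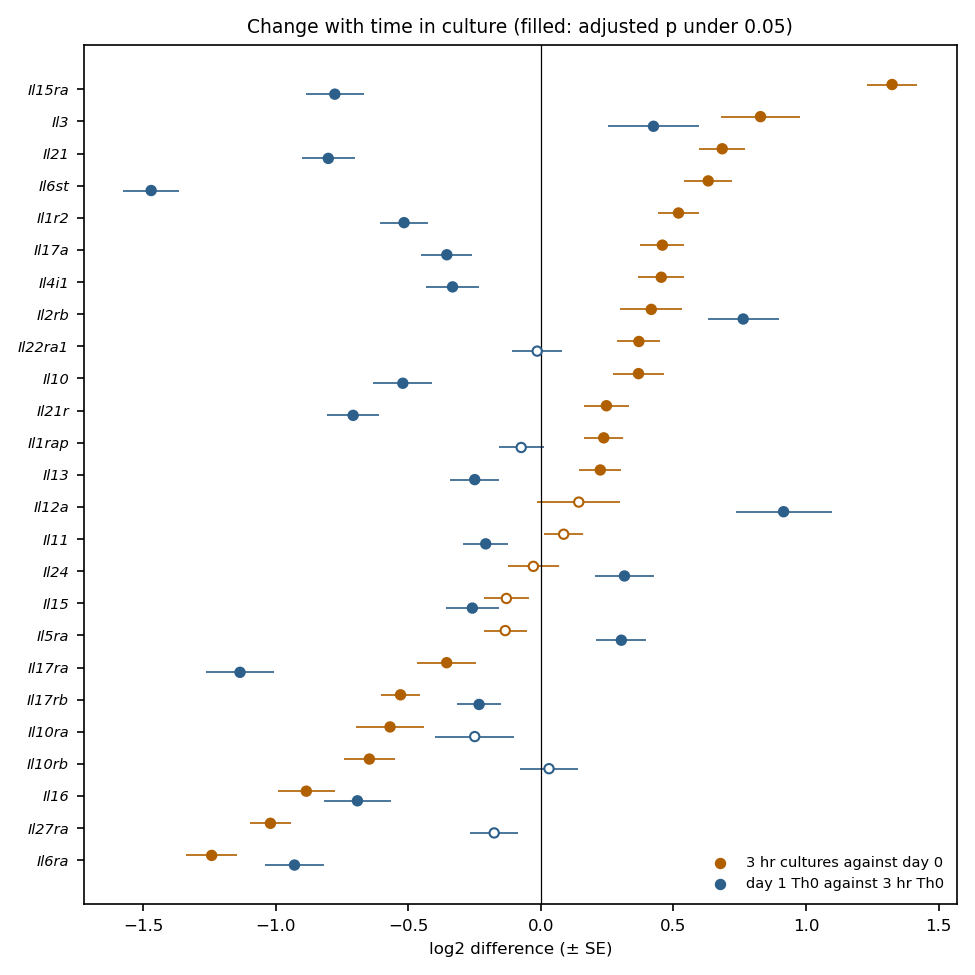
Log2 difference with its standard error for the 25 members that passed in either time comparison, 3 hr cultures against day 0 in brown and day 1 Th0 against 3 hr Th0 in blue; filled points passed an adjusted p of 0.05. Il6ra and Il16 were lower in both comparisons, and Il15ra, Il21 and Il6st had a positive difference in the first and a negative one in the second.

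In iTreg culture 18 of 39 members passed between day 1 and 3 hr, 6 higher and 12 lower (54.4% of all genes; 26.1% higher, 28.3% lower). The day 1 iTreg and 3 hr iTreg arrays were on different chips, so chip and day cannot be told apart here. Il12a was at 8.64 in KO and 9.06 in WT cells at day 1, against 6.19 in KO and 6.34 in WT cells at 3 hr, a log2 difference of 2.59 (SE 0.181, adjusted p = 3.18e-09). Il24, a cytokine of the IL-10 family, was at 8.32 in KO and 8.35 in WT cells at day 1 and not above background at 3 hr (at least 4.04-fold higher, adjusted p = 2.72e-11). Both genes were near background before day 1 in either genotype. Il1a, an IL-1 family alarmin, was above background on only 1 of these 4 arrays, WT at day 1, at 7.60, while the KO array was at 6.09. Its average difference of 0.77 fell to 0.15 (adjusted p = 0.311) without the WT array. Il2rb, Il10rb and Il27ra were higher by 0.60, 0.49 and 0.30, and the Il2rb difference was 0.31 without the WT day 1 array, 0.88 without the KO day 1 array and 0.50 (adjusted p = 0.0545) without the KO 3 hr array. The Il10rb difference was 0.26 (adjusted p = 0.0442) without the KO day 1 array, and that of Il27ra was 0.16 (adjusted p = 0.294) without the WT 3 hr array. Il15ra fell by 1.40, Il6st by 1.37, Il17ra by 0.64 and Il6ra by 0.58. The fall of Il17ra was 0.41 without the WT day 1 array, and that of Il6ra was 0.35 (adjusted p = 0.0607) without the WT 3 hr array. Il21 was at least 1.75-fold lower, Il10 at least 1.56-fold lower and Il17a at least 1.27-fold lower at day 1, all 3 being below background there. Il17a passed the filter only through the 3 hr arrays, so its call is not independent of the filter. All 4 tested myeloid markers were lower at day 1 in iTreg culture too (S100a8 by −1.67 and S100a9 by −1.62 on the log2 scale), and both red cell genes were lower. Of the CD8 and NK cell markers, Nkg7 was higher by 1.97, while Cd8b1 and Klrd1 were lower (−0.89 and −0.62). Their part was not tested.

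At 3 hr, iTreg culture could not be told from Th0 culture in any member. None of the 39 passed in limma, 1 had an unadjusted p under 0.05, and 0% of all genes passed (454 of 9800 at an unadjusted p under 0.05). The 95% confidence interval of the iTreg minus Th0 difference ran from −0.15 to 0.32 for Il10, from −0.04 to 0.38 for Il21, from −0.08 to 0.32 for Il17a and from −0.15 to 0.42 for Il2rb. It ran from −0.25 to 0.23 for Il6ra and from −0.17 to 0.28 for Il6st.

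At day 1, iTreg and Th1 cultures were compared within 1 chip (2 arrays each). Il12a and Il24 were far higher in iTreg cultures of both genotypes, several receptor chains were modestly higher, and Il21, Il15ra, Il10 and Il10ra were lower. Of 39 members 10 passed (25.6%), 6 higher and 4 lower, beside 12.6% of all genes, 6.73% higher and 5.88% lower. The members' median difference was 0.05, and that of all genes was −0.02.

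Il12a was at 8.64 in KO and 9.06 in WT iTreg cells, against 6.09 in KO and 6.16 in WT Th1 cells, which were not above background. The difference was at least 5.86-fold (log2 difference 2.73, SE 0.181, adjusted p = 2.15e-08). Il24 was at 8.32 in KO and 8.35 in WT iTreg cells, against 6.29 in KO and 6.15 in WT Th1 cells, also not above background (at least 4.10-fold, log2 difference 2.12, SE 0.11, adjusted p = 1.11e-09). Both genes thus showed a signal in iTreg culture and none above background in Th1 culture, and neither call was lost in any other setting. Il21 was at 6.06 in KO and 6.03 in WT iTreg cells, against 6.64 in KO and 6.82 in WT Th1 cells, so here it was the iTreg cells that were below background (at least 1.34-fold lower, adjusted p = 0.000213). Il10 was below background in iTreg cells, at 6.28 in KO and 6.27 in WT, against 6.73 in KO and 6.56 in WT Th1 cells (at least 1.26-fold lower, adjusted p = 0.0376, a call lost in 8 of 25 other settings, with an adjusted p of 0.484 without the KO Th1 array).

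Among receptors, Il6ra was higher in iTreg than in Th1 culture by 0.65, Il10rb by 0.64, Il27ra by 0.47 and Il21r by 0.33. Il27ra differed by 0.65 on its second probe, and Il21r by 0.10 (adjusted p = 0.658) on its second. Without the KO iTreg array, Il10rb differed by 0.40 and still passed, and Il21r by 0.29 (adjusted p = 0.183). Il15ra was at 6.31 in KO and 6.48 in WT iTreg cells, against 7.06 in KO and 7.14 in WT Th1 cells (log2 difference −0.70, SE 0.11, adjusted p = 0.000352). Its 3 other probes differed by −0.18 to −0.22 and did not pass. Il10ra, the IL-10 binding chain, was at 7.09 in KO and 6.13 in WT iTreg cells, against 7.22 in KO and 7.01 in WT Th1 cells. The fall of 0.51 lay in the WT pair of arrays, and it was 0.14 (adjusted p = 0.45) without the WT iTreg array and 0.87 without the KO one. Of 4 tested myeloid markers 3 were higher in iTreg culture (S100a8 by 1.13, S100a9 by 0.66 and Lyz1 by 0.43). Of the CD8 and NK cell markers, Nkg7 was higher and Cd8b1 lower, while Klrd1, Klrb1c and Gzma did not pass. Cd74 and the T cell genes Trat1 and Cd28 were lower. Their part in the interleukin levels was not tested.

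Against day 1 Th0 cultures, which were on the other chip, so that chip and culture cannot be told apart, 8 of 39 members passed in iTreg culture, 6 higher and 2 lower (9.33% of all genes; 4.95% higher, 4.38% lower). Il12a was 3.42-fold higher in iTreg than in Th0 culture (adjusted p = 4.2e-06). Il24 was 4.06-fold higher (adjusted p = 2.63e-09), against Th0 arrays at the background limit, of which only the KO array was above it. Il10rb, Il27ra and Il21r were higher by 0.49, 0.39 and 0.34, and Il15ra and Il5ra, the IL-5 binding chain, were lower by 0.52 and 0.36. Without the KO iTreg array, the Il10rb difference was 0.26 (adjusted p = 0.189) and the Il21r difference 0.30 (adjusted p = 0.158), and both calls were also lost without either Th0 array. Il5ra did not pass without the WT iTreg array (adjusted p = 0.0775) or the WT Th0 array (adjusted p = 0.313). Il1a passed at 0.75, again through the WT array alone, and its call was lost in 16 of 24 other settings. Of the CD8 and NK cell markers, Nkg7 and Klrd1 were higher in iTreg culture by 1.58 and 0.79, and Cd8b1 differed by −1.30. The others tested, Klrb1c and Gzma, did not pass (0.02 and −0.14). Cd74, Trat1 and Cd28 were lower, while no myeloid marker passed. Their part was not tested.

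Day 1 Th1 cultures differed from day 1 Th0 cultures, again across chips, in 2 of 39 members (0.531% of all genes). Il21 was at 6.64 in KO and 6.82 in WT Th1 cells and below background in both Th0 arrays, at 6.07 in KO and 6.22 in WT. It was at least 1.34-fold higher in Th1 culture (adjusted p = 0.0115), a call lost without any 1 of the 4 arrays compared (highest adjusted p = 0.287). Il12a was at 6.09 in KO and 6.16 in WT Th1 cells, below background, against 7.32 in KO and 6.83 in WT Th0 cells, and was at least 1.71-fold lower in Th1 culture (adjusted p = 0.0251, lost in 10 of 25 other settings). Among the other markers, Nkg7 was higher in Th1 culture by 0.60 and Lyz1 was lower (−0.55).

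**Figure D3:**
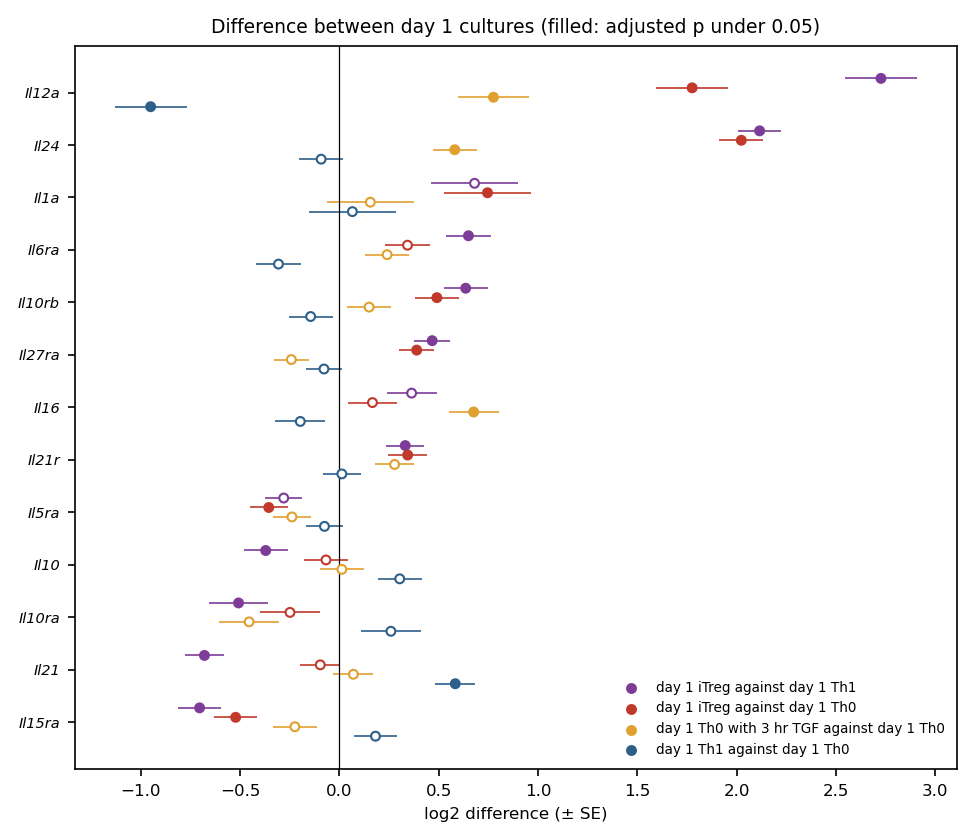
Log2 difference with its standard error between day 1 cultures for the 13 members that passed in at least 1 of the 4 comparisons shown; filled points passed an adjusted p of 0.05. Il12a and Il24 lie to the right in both iTreg comparisons and, less far, after 3 hr of TGF.

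Adding TGF to day 1 Th0 cells for 3 hr was followed by higher levels of Il12a, Il24 and Il16. Against day 1 Th0 cells, on the other chip, 3 of 39 members passed, all higher (2.41% of all genes; 1.59% higher, 0.816% lower). Against 1 hr of TGF, on the same chip, 2 passed, both higher (0.633% of all genes; 0.449% higher). Both comparisons use the 3 hr TGF arrays.

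Il12a in Th0 cells was at 7.32 in KO and 6.83 in WT without TGF, 7.31 in KO and 6.67 in WT after 1 hr, and 8.12 in KO and 7.58 in WT after 3 hr. In each genotype the level after 3 hr was above those before, by 0.86 against 1 hr (SE 0.181, adjusted p = 0.041) and 0.78 against no TGF (adjusted p = 0.0332). Il24 was at 6.31 in both genotypes without TGF, 6.47 in KO and 6.26 in WT after 1 hr, and 7.12 in KO and 6.66 in WT after 3 hr. It was higher after 3 hr by 0.53 than after 1 hr (adjusted p = 0.0404) and by 0.58 than without TGF (adjusted p = 0.00757). In each earlier condition Il24 was above background on only the KO array, so these are differences from the background limit. The calls between 3 hr and 1 hr were fragile: that of Il12a was lost in 18 of 25 and that of Il24 in 15 of 24 other settings. Against no TGF, the Il12a call was lost in 12 of 25 settings and that of Il24 without the KO Th0 array or the KO 3 hr TGF array (highest adjusted p = 0.236).

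Il16 was at 10.34 in KO and 10.23 in WT without TGF, 10.95 in KO and 10.90 in WT after 1 hr, and 10.96 in both after 3 hr. The difference of 0.68 between 3 hr and no TGF (SE 0.125, adjusted p = 0.00675) was thus already present at 1 hr, when the chip had changed too, and the call was lost without either Th0 array or the WT 3 hr TGF array (highest adjusted p = 0.214). Ebi3, which encodes the partner chain of Il12a in IL-35, was higher by 0.47 after 3 hr of TGF than without it, again across chips (adjusted p = 0.0424). It was at 6.73 in KO and 6.56 in WT without TGF, and at 6.83 in KO and 6.86 in WT after 1 hr. After 3 hr it was at 7.02 in KO and 7.23 in WT. In day 1 iTreg culture, where Il12a was highest, Ebi3 was at only 6.42 in KO and 6.86 in WT.

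**Figure D4:**
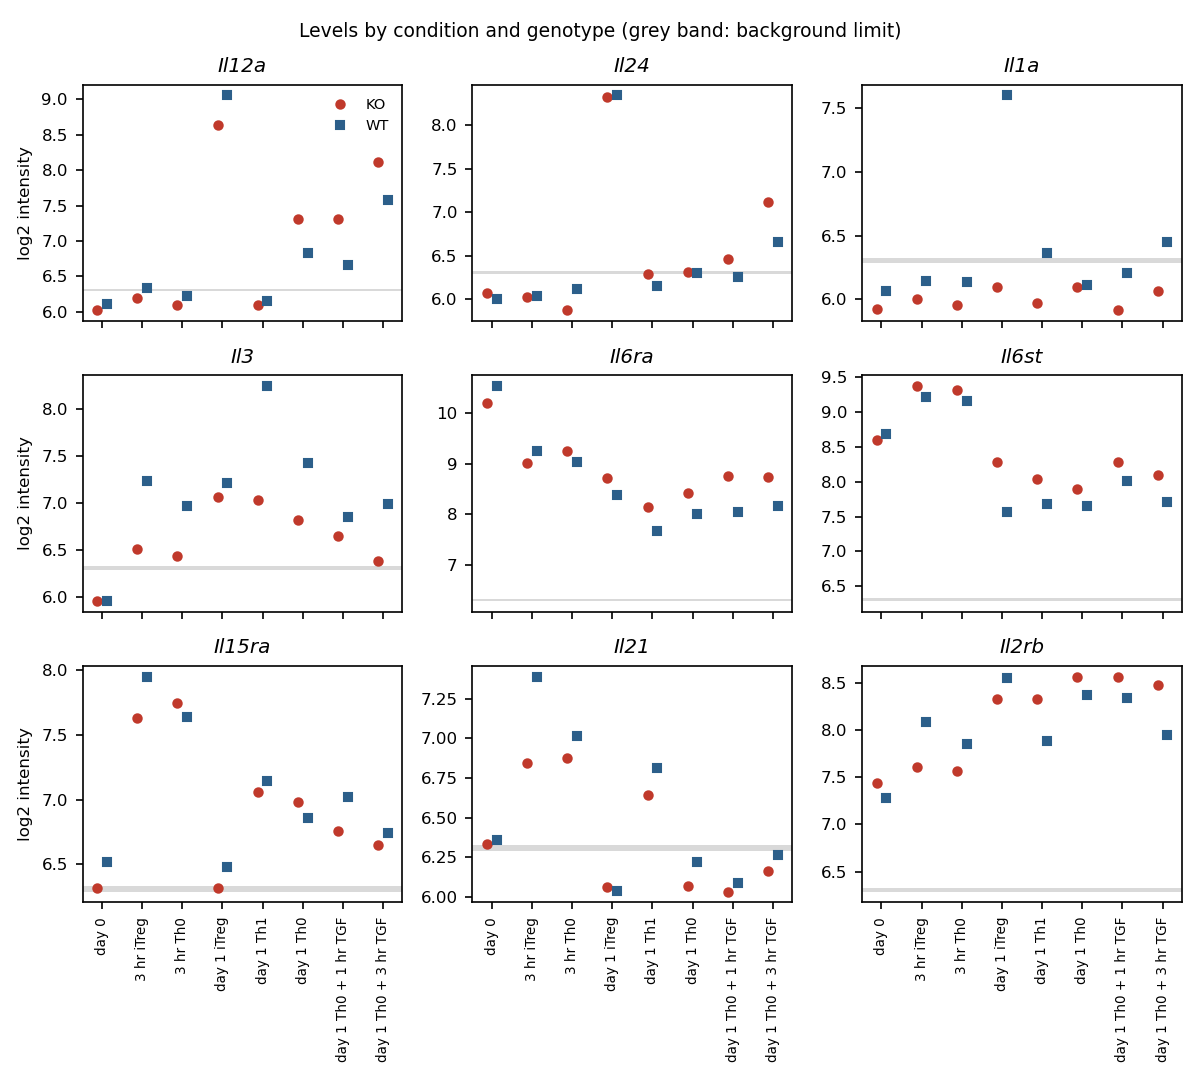
Log2 intensity of 9 members on each array, by condition along the horizontal axis, with KO as red circles left of WT as blue squares; the grey band is the background limit of 6.29 to 6.33. Il12a and Il24 are higher after 3 hr than after 1 hr of TGF and highest in iTreg culture at day 1, Il3 is lower in KO than in WT cells in every cultured pair, and Il6ra and Il6st are higher in KO cells in all day 1 pairs.

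The genotype comparison at 3 hr (2 pairs, KO minus WT) asked which interleukin genes differed by Erk2 genotype early in culture. Only Il27ra passed of 39 members, beside 3.65% of all genes, 1.37% higher and 2.29% lower in KO. It was at 10.84 and 10.79 in KO and 10.34 and 10.56 in WT cells (iTreg, then Th0), higher by 0.36 in KO (SE 0.0894, adjusted p = 0.0335). The second probe differed by 0.11 (adjusted p = 0.581), and the call was lost in 14 of 25 other settings, with a difference of 0.23 (adjusted p = 0.707) without the iTreg pair at 3 hr.

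The ligands Il3, Il10, Il21 and Il17a and the receptor chain Il2rb were below the WT level in both 3 hr pairs without passing. Il3 was at 6.51 and 6.43 in KO against 7.23 and 6.96 in WT cells (log2 difference −0.62, adjusted p = 0.0593). Il10 was at 6.67 and 6.74 in KO against 7.23 and 6.99 in WT cells (−0.41, adjusted p = 0.0537). Il21 differed by −0.34 (adjusted p = 0.0767), Il17a by −0.31 (adjusted p = 0.0993) and Il2rb by −0.38 (adjusted p = 0.146), again with no overlap between genotypes. When the day 1 iTreg pair was left out of the fit, these 2-pair differences were the same but the estimated spread was smaller. More members then passed, Il10, Il2rb, Il21 and Il17a among them. The share of all genes that passed in that fit is not given here, so this is not a result about the interleukins in particular. Il6ra and Il6st differed by −0.02 and 0.15 (adjusted p = 0.964 and 0.515), with 95% confidence intervals of −0.25 to 0.22 and −0.07 to 0.38.

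Markers of other cells moved with genotype at 3 hr. Of the 7 myeloid markers on the array 4 were tested and 3 were lower in KO (Lyz1 by 1.43, Lyz2 by 0.96 and S100a9 by 0.78). The summed myeloid intensity was 1568 to 1631 in KO and 2532 to 3113 in WT cells. The antigen-presenting genes H2-Ab1, Cd74 and H2-Aa, 3 of 7 tested on the B cell list, and both red cell genes were lower as well. The rest of that list did not move this way. Cd79b, Cd22 and Cd79a, all near background, were higher in KO than in WT cells in both pairs, and Ms4a1 was mixed. Their part in the interleukin levels was not tested.

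At day 1 the genotype comparison rests on 5 pairs. The receptor chains Il6ra, Il6st, Il10ra and Il10rb were higher in KO cells, and Il3, Il1a and Il4i1 were lower. These 7 of 39 members (17.9%) passed beside 6.97% of all genes, 3.76% higher and 3.21% lower. Each had its direction in 5 of 5 pairs, but the test reads its spread from these same pairs, so this is not separate support. Il11, Il13 and Il18rap also kept their direction in 5 of 5 pairs without passing.

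Il6ra was at 8.72 (iTreg), 8.14 (Th1), 8.42 (Th0), 8.75 (1 hr TGF) and 8.73 (3 hr TGF) in KO cells, against 8.39, 7.67, 8.001, 8.04 and 8.17 in WT cells in the same order. Each KO array was above its WT partner, by 0.50 on average (SE 0.0707, adjusted p = 0.000399), although levels of the genotypes overlapped across cultures. Il6st was at 8.28, 8.04, 7.89, 8.28 and 8.10 in KO, against 7.57, 7.68, 7.65, 8.01 and 7.70 in WT cells, again higher in every pair, by 0.40 (SE 0.0665, adjusted p = 0.00174). The 2 chains of the IL-6 receptor thus had the same direction in KO cells, and neither call was lost in any other setting. Without the iTreg pair they differed by 0.54 and 0.32. Il6, their ligand, was above background on no array.

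Both IL-10 receptor chains were higher in KO cells, Il10ra by 0.38 (SE 0.0947, adjusted p = 0.0255) and Il10rb by 0.31 (SE 0.07, adjusted p = 0.0149). Their pairs were uneven. For Il10ra the iTreg pair differed by 0.96 and the others by 0.12 to 0.40, and for Il10rb the iTreg pair differed by 0.68 and the others by 0.16 to 0.25. Without the iTreg pair the differences were 0.23 (adjusted p = 0.0332) and 0.21 (adjusted p = 0.0306), and both calls were lost without the 3 hr TGF pair (highest adjusted p = 0.0959 and 0.0503). Il10 itself differed by −0.07 (adjusted p = 0.673).

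Il3 was at 7.06 (iTreg), 7.03 (Th1), 6.82 (Th0), 6.65 (1 hr TGF) and 6.38 (3 hr TGF) in KO cells, against 7.21, 8.25, 7.43, 6.85 and 6.99 in WT cells. It was lower in KO in every pair (log2 difference −0.56, SE 0.109, adjusted p = 0.00533), most in Th1 culture, where the difference was −1.21, and least in iTreg culture, at −0.15. The genotype ranges overlapped. Without the iTreg pair the difference was −0.66 (adjusted p = 2.72e-05), and the call was lost only with a trended and robust prior (adjusted p = 0.0547). Il3 was below its WT partner in all 7 cultured pairs, and both day 0 arrays were below background.

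Il1a was not above background on any KO array at day 1. WT cells were at 7.60 (iTreg), 6.36 (Th1), 6.11 (Th0), 6.20 (1 hr TGF) and 6.45 (3 hr TGF), so 3 WT arrays were above background. Il1a was above background on no other array of the series, so it passed the filter only through the WT cells at day 1. KO cells were at 6.09, 5.97, 6.09, 5.91 and 6.07, and the difference was at least 1.18-fold (log2 difference −0.52, adjusted p = 0.0346, lost in 13 of 25 other settings). Without the iTreg pair the log2 difference was −0.27 (adjusted p = 0.0136), between signals mostly at background, and the bound rests on the WT iTreg array. Il4i1, a secreted amino acid oxidase named for its induction by IL-4, was lower in KO by 0.23 (adjusted p = 0.0374, lost in 10 of 26 other settings). It was above background on every WT array at day 1, but among KO arrays only in iTreg culture, where the pair differed by −0.04. The difference is therefore set by background on the KO side in the other pairs. Il2rb differed by 0.24 (adjusted p = 0.122), and by 0.35 without the iTreg pair (adjusted p = 0.0013). Il21 differed by −0.09 (adjusted p = 0.478) and Il17a by 0.07 (adjusted p = 0.584).

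**Figure D5:**
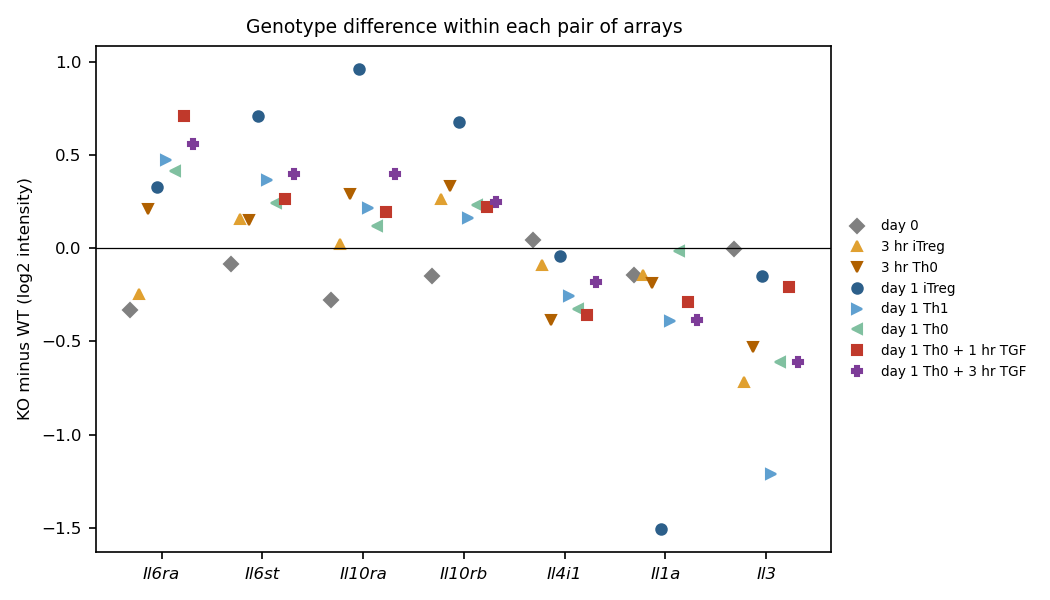
KO minus WT log2 intensity in each pair of arrays for the 7 members that passed at day 1, 1 point per condition, and grey diamonds for day 0. The 5 day 1 points of a gene share a sign, while the day 1 iTreg pair (dark blue circles) lies apart for Il1a, Il10ra and Il10rb and the Th1 pair (light blue triangles) for Il3.

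Other cell markers were mixed at day 1. Of 4 tested myeloid markers S100a8 and S100a9 were higher in KO and Lyz1 and Lyz2 lower, and the summed myeloid intensity was 646 to 997 in KO and 591 to 771 in WT cells. Of 5 tested CD8 and NK cell markers, Nkg7 and Klrd1 were higher in KO (by 0.78 and 0.32). On that list Cd8b1 was lower in KO in every day 1 pair but iTreg, and Klrb1c and Gzma were mixed and near background. Cd74 was higher by 0.24, H2-Aa and H2-Ab1 were lower (−0.28 and −0.31), and so was Hba-a1 (−1.78). Mast cell and basophil markers, of which 5 are on the array, were above background for 0 or 1 gene per day 1 array in either genotype, and none of the 3 tested passed. The part of other cells in the interleukin levels was not tested.

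Whether the genotype difference changed with time was tested as day 1 minus 3 hr. No member passed in limma, beside 1.28% of all genes. Il6ra came nearest, with a change of 0.52 in the KO minus WT difference (adjusted p = 0.0765), followed by Il2rb with 0.62 (adjusted p = 0.0772). Both passed when arrays were weighted. A pass at day 1 and not at 3 hr is therefore not shown to differ for any member.

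The iTreg pair differed from the other 4 day 1 pairs in 6 of 39 members (5.1% of all genes; 3.54% higher, 1.56% lower). It is a single pair, and holds the KO array that stood apart. KO minus WT for Il1a was −1.51 in the iTreg pair, against −0.27 on average in the others (difference −1.24, SE 0.148, adjusted p = 9.94e-06). Every KO array and the WT Th0 and 1 hr TGF arrays were below background for Il1a, so these differences are set by background on the KO side. For Il12a it was −0.42, against 0.40 on average in the others (adjusted p = 0.0068), whose range of −0.06 to 0.65 did not reach the iTreg value. For Il2rb it was −0.22 against 0.35 (adjusted p = 0.0235). Il10ra (0.96 against 0.23), Il16 (0.65 against 0.08) and Il10rb (0.68 against 0.21) ran the other way, higher in KO iTreg cells. The Il10rb call was lost in 10 of 23 other settings. Of 7 T cell markers 4 (Cd3g, Cd3d, Trat1 and Cd28) also differed upwards in the same test. Il24 showed no such difference, with KO minus WT of −0.02 in the iTreg pair.

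In the day 0 pair, with no test, the 3 members furthest up and the 3 furthest down in KO minus WT had 0.27 for Il17a, 0.25 for Il15 and 0.23 for Il10, and −0.37 for Il1r1, −0.35 for Il11 and −0.33 for Il6ra. Of these, Il10 and Il6ra were above background on both arrays, Il15, Il1r1 and Il11 on 1 and Il17a on neither, so 4 of the 6 values are read at background. In view of the globin values above, the direction of all 6 is unsettled.

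Genes that carry interleukin signals were taken from lists chosen for the family. Of 15 tested Jak, Stat and feedback genes, 2 were higher and 13 lower in day 1 Th0 than in 3 hr Th0 culture, where 27.8% of all genes were higher and 28.5% lower. Socs2, a feedback inhibitor, was higher by 3.95 and Jak2 lower by 1.46. Between iTreg and Th1 cultures at day 1, 5 were higher and 1 lower in iTreg (6.73% and 5.88% of all genes). Stat5a, which acts below the IL-2 receptor, was higher by 1.79, and Cish, a target of Stat5, by 1.33. Stat4, which acts below the IL-12 receptor, was lower by 0.73. Of the 10 tested IL-1 and Toll adaptors, Traf6 was higher by 1.20 and Irak2 lower by 0.57 in the same comparison.

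Between genotypes at day 1, 4 of the 15 Jak, Stat and feedback genes were higher in KO cells and 1 was lower (3.76% and 3.21% of all genes). Socs3, the feedback inhibitor of gp130 receptors, was higher in KO by 0.77 (adjusted p = 0.000537), Socs1 by 0.31, Cish by 0.28 and Jak3 by 0.20, while Jak2 was lower by 0.66. Socs3 differed more in the iTreg pair than in the others, by 0.93. None of the 10 adaptors passed at day 1. Of 8 tested cytokines and receptors without an Il symbol, Lif and Osm, ligands of gp130 receptors, were higher in KO by 0.51 and 0.43. Csf2, which lies beside Il3 in the genome, passed as lower in KO at day 1, but no KO array and only 2 of 5 WT arrays lay above the background limit, and no fold is given. At 3 hr, Csf2 was lower in KO by 0.54, Lif by 0.45, Jak2 by 0.69 and Stat5a by 0.36, and Ptpn6 was higher by 0.61. The change of the genotype difference with time passed for Lif (0.96, adjusted p = 0.00111), Cish (0.68, adjusted p = 0.0148) and Ptpn6 (−0.53, adjusted p = 0.0171).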

How the data were processed

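Illumina bead arrays were hybridised with RNA of 16 samples. The deposited table holds raw probe intensity on a linear scale. The deposited series matrix holds intensity values that the authors normalized, and their method, like the scanner settings, is not given in the sources used here. Raw values were corrected in limma 3.58.1 (R 4.3.3) by normexp with an offset of 50, which shrinks differences of dim probes, then quantile normalized and log2 transformed. Background on an array was modelled as normal around the mode of its log2 values. Probes above it on at least 2 arrays were tested, and the brightest one stands for its gene. Each fit held 8 condition means and a genotype term within day 0, 3 hr and day 1, which leaves 5 residual degrees of freedom over 16 arrays, or 4 where the iTreg pair had its own term. The day 0 pair adds no residual. No label ties cultures to animals, so the p-values reflect only how much these samples vary, which may be technical. Members, gene lists and tests were chosen with earlier results of these data known. The rule named up to 6 passing members with the largest rise and 6 with the largest fall per comparison, also Il10, Il21, Il2rb, Il6ra, Il6st and Il17a, the 3 largest day 0 differences each way and 4 genes of the other lists. Further names were chosen after their values were seen. The fits were tested on simulated data. The level of the targeted gene is not reported here.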

Additional observations from a re-analysis of the deposited data

Results flagged for a closer look

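For 6 genes, the genotype difference was not the same in the iTreg pair as in the other 4 day 1 pairs, by a test of that contrast itself. The KO minus WT difference was lower in iTreg culture for Il1a (−1.24), Il12a (−0.82) and Il2rb (−0.57), and higher for Il10ra (0.73), Il16 (0.57) and Il10rb (0.47). Adjusted p ranged from 9.94e-06 (Il1a) to 0.0399 (Il10rb). The Il10rb call was lost in 10 of 23 other settings, that of Il2rb in 4, that of Il16 in 2 and that of Il12a in 1. All 6 rest on 1 pair, whose KO array lay at 17.2 on the first principal component against 30.04 to 35.1 for the other day 1 arrays. For Il1a no KO array at day 1 was above background, so its value is set by background on that side. In WT iTreg cells Il1a was at 7.60, above every other array in the series, the next being WT 3 hr TGF at 6.45. What sets this pair apart was not tested.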

How the results depend on the processing

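Of 79 passing results for named genes, 39 kept their direction and passed under every alternative, and none turned its direction. Leaving out each array in turn gave 16 to 22 passing members for 3 hr against day 0, 13 to 21 for day 1 against 3 hr Th0, 12 to 19 for day 1 against 3 hr iTreg, 0 to 0 for 3 hr iTreg against Th0, 0 to 3 for Th1 against Th0, 4 to 9 for iTreg against Th0 and 7 to 13 for iTreg against Th1. The same ranges were 0 to 4 for 3 hr of TGF against Th0, 0 to 2 for 3 hr against 1 hr of TGF, 0 to 8 for KO against WT at 3 hr, 3 to 9 at day 1, 0 to 3 for day 1 against 3 hr, and 4 to 7 for the iTreg pair against the others. The 3 at day 1 came without the 3 hr TGF pair.

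With 1 additive genotype term over all arrays, 0 members passed for Th1 against Th0 and 0 for 3 hr against 1 hr of TGF. Genotype itself was fitted here with 1 term shared by day 0 and 3 hr and another for day 1. That gave 0 for genotype at 3 hr, 4 at day 1 and, with a further term for it, 3 for the iTreg pair. A trended and robust prior gave 1, 1, 2 and 4 for the first 4 of these comparisons. An offset of 16 gave 0 for 3 hr against 1 hr of TGF, 0 for genotype at 3 hr and 2 for the iTreg pair. The authors' normalized values and cyclic loess each gave 0 for 3 hr against 1 hr of TGF and 0 for genotype at 3 hr. No filter, or a filter at 8 arrays, gave 1 for 3 hr against 1 hr of TGF. No background correction gave 2 for genotype at 3 hr, and array weights gave 3, with 2 for day 1 against 3 hr. The share of all genes passing in these fits, and in those without 1 array, is not given here. The counts therefore show only how the calls of members moved. The causes were not tested.

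Direction turned only in results that did not pass, nearly all when 1 array was left out. The ranges over arrays left out were, for 3 hr iTreg against Th0, −0.0719 to 0.241 (Il10), −0.0325 to 0.375 (Il21) and −0.238 to 0.218 (Il6ra). For Th1 against Th0 they were −0.0131 to 0.180 (Il6st) and −0.0746 to 0.205 (Il17a), and for iTreg against Th0 −0.316 to 0.256 (Il2rb) and −0.0433 to 0.348 (Il6st). For iTreg against Th1 they were −0.127 to 0.265 (Il6st) and −0.142 to 0.139 (Il17a, also 0.00844 with an offset of 16 and 0.000286 with the authors' values). For 3 hr of TGF against Th0 they were −0.0462 to 0.0707 (Il10) and −0.0151 to 0.123 (Il17a), against 1 hr −0.0648 to 0.239 (Il10) and −0.0812 to 0.182 (Il6ra), and for genotype at 3 hr −0.245 to 0.211 (Il6ra). The labels give no replicate numbers to use as a block. Condition enters each fit as a term, so genotype is compared within KO and WT pairs of a condition. Arrays near background bound folds from below, and no scaling moved the median of all probes by more than 0.03.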
